A study of Mus musculus with 6 samples.

Results

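The genes described here encode the proteins of the cytosolic ribosome in 32D cells, a mouse myeloblast-like line that grows in interleukin-3. They were taken by gene symbol alone: the Rps and Rpl names, Rplp0 to Rplp2, Rpsa and Rps27rt, without Rps27l and without numbered pseudogenes. The rule matched 89 of the 54532 gene rows, 36 of the small subunit and 53 of the large, and 6 of them are annotated as processed pseudogenes (Rps3a2, Rps3a3, Rpl6l, Rpl32l, Rps12l1 and Rps4l). The cells of both groups had been transduced with the retroviral vector MSCV-IRES-GFP carrying human U2AF1, a splicing factor that recognises the 3' end of introns. One group carried the wild-type protein (WT, 3 libraries) and the other the S34F substitution (S34F, 3 libraries), which recurs in myeloid malignancies. The labels mention no change to the mouse gene U2af1, and they name neither separate cultures nor separate transductions, so p-values measure only the spread between libraries, which may be technical.

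The ribosome joins a small subunit, which reads the messenger RNA, to a large subunit, which forms the peptide bonds, and each subunit holds many proteins, mostly in a single copy, around its ribosomal RNA. Ribosomal protein mRNAs are short and abundant, and most begin with a C followed by a run of pyrimidines, the 5' terminal oligopyrimidine (TOP) tract through which mTOR and LARP1 control their translation. Loss of a single ribosomal protein gene impairs red cell formation in Diamond-Blackfan anemia and in the 5q- syndrome. The parent genes have left many processed pseudogenes in the mouse genome, so that a read from a ribosomal protein mRNA can match several places.

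Rps27 and Rps27rt show how far this goes, and they carry the strongest difference among the members. Rps27 has 4 exons in its main transcript, at chr3:90212522-90213651 on the minus strand (GRCm38). Rps27rt has 1 exon, at chr9:114982366-114982739 on the minus strand. Their coding parts are identical over all 255 bases, and both read, from the GENCODE M21 transcripts:

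Rps27 and Rps27rt coding part: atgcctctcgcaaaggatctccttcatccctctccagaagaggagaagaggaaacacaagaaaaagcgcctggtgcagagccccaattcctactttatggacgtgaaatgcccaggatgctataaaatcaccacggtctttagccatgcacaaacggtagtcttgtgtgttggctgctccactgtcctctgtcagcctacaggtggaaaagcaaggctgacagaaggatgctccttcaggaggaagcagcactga

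Around the annotated starts, from 40 bases before to 20 bases after, the longest stretch they share is 19 bases, in capitals in these RefSeq sequences (GRCm38.p6, minus strand, chr3:90213629-90213688 and chr9:114982720-114982779).

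Rps27 start: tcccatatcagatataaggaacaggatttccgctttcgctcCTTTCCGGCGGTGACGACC
Rps27rt start: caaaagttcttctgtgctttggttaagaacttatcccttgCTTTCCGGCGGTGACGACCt

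The TOP tract is the sequence feature that the family is best known for, and 4 starts over the same span show it with its pyrimidine run in capitals, next to Rps28, which has no such run by the rule used. Rpl28, Rpl35 and Rps28 were among the members with the smallest p above 0, and Rps6 and Rps12 among those below 0. The windows lie at chr7:4792925-4792984 (plus), chr2:39005112-39005171 (minus), chr4:86857348-86857407 (minus), chr10:23787190-23787249 (minus) and chr17:33824543-33824602 (minus), in the order printed.

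Rpl28: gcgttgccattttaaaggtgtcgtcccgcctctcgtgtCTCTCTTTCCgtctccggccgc
Rpl35: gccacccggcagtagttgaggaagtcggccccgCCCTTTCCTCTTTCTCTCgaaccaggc
Rps6: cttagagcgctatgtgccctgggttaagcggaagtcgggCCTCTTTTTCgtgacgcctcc
Rps12: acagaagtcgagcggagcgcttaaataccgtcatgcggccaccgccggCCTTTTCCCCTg
Rps28: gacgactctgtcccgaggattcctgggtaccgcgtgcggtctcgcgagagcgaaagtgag

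The run was defined as a C followed by at least 4 further C or T bases, on the gene's strand, beginning within 10 bases of the annotated start. It was found in 56.0% of the 75 windows of the 64 members in the RefSeq table and in 30.7% of all 32851 windows. In the full windows, searched on both strands from 250 bases before to 50 after the start, CCGGAAG (the core of ETS and GABP sites) was in 34.7% of member windows against 8.86% of all. ATGGCGG, a YY1-like motif, was in 17.3% against 4.05%, and GGGCGG, the GC box, in 58.7% against 35.7%. CACGTG, the E box that MYC binds, was in 10.7% against 7.15%, and TATAAA in 10.7% against 13.6%. Neighbouring motifs may share bases, and these are counts of letters in fixed windows, not of bound sites.

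Libraries held 16509899 to 19129250 counts, so that 1 count equalled 0.0523 to 0.0606 CPM by these totals. The CPM values of genes are counts scaled by the normalised size of each library. Values for a group are given in the order of replicates 1, 2 and 3. WT replicates 2 and 3 were near-duplicates: the biological coefficient of variation between this pair was 3.16%, against 16.5% to 21.5% for the other pairs within a group. Their counts differed beyond sampling noise (a chi-square of 2.30 per degree of freedom), but this value cannot tell separate cultures from repeat libraries of 1 culture. They were kept as 2 libraries, as labelled, and, as an alternative, summed into 1. The number of calls depends on this choice. At an edgeR adjusted p under 0.05, 213 of 13444 genes rose and 80 fell with both kept. With the pair summed, 16 of 13815 rose and 4 fell. WT means and SDs with n = 3 count both libraries. U2af1 counts were 91.9, 57.3 and 91.7 CPM in S34F and 97.9, 58.6 and 56.9 CPM in WT, and carry no check of the substitution. Of the myeloblast markers, Spi1, Ctsg, Csf2rb and Il3ra were present in every library, while Cebpa was at 0 in all, Kit was above 0 only in WT replicate 2 (0.177 CPM), and Elane and Cd34 were at most 0.324 and 0.487 CPM.

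Of the 89 members, 84 passed the filter on low counts and were tested among 13444 genes. Of these 84, 1 rose and 1 fell at an adjusted p under 0.05 (edgeR quasi-likelihood test, Benjamini-Hochberg over all genes tested), against 2.18% of all genes in either direction. Separately, 71 of the 84 had a log2 fold change above 0, and the median was 0.28, where 50.1% of all genes tested were above 0 and their median was 0.00. At an unadjusted p under 0.05, 35 were higher and 3 lower in S34F, beside 11.9% and 10.1% of all genes. With WT replicate 1 left out, 18 members rose, beside 5.22% of all genes, and 2 fell, beside 3.29%. In that fit the WT group is only the near-duplicate replicates 2 and 3, so its WT spread is that of the closest pair. DESeq2 called 18 higher, beside 5.55% of all genes, and 1 lower, beside 3.50%. These are counts over genes that share libraries, and no test was made over the list. In whole cultures, fewer cells of a type and less RNA per cell cannot be told apart.

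The same shift appears library by library. The mean log2 level of the tested members, set against that of WT, came to 0.38, 0.16 and 0.25 in S34F and to 0.14, -0.06 and -0.07 in WT. S34F replicate 2 thus lay barely above WT replicate 1, while WT replicates 2 and 3 were the lowest. WT replicate 1 was the highest WT library for 63 of the 84 genes, and for 41 it reached the lowest S34F library. All 3 S34F libraries lay above all 3 WT libraries for 36 members and below them for 3, beside 14.0% and 13.1% of all genes, and the groups overlapped for 45. The median log2 fold change was 0.37 without WT replicate 1, 0.20 without S34F replicate 1 and 0.26 with WT replicates 2 and 3 summed.

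**Figure D1:**
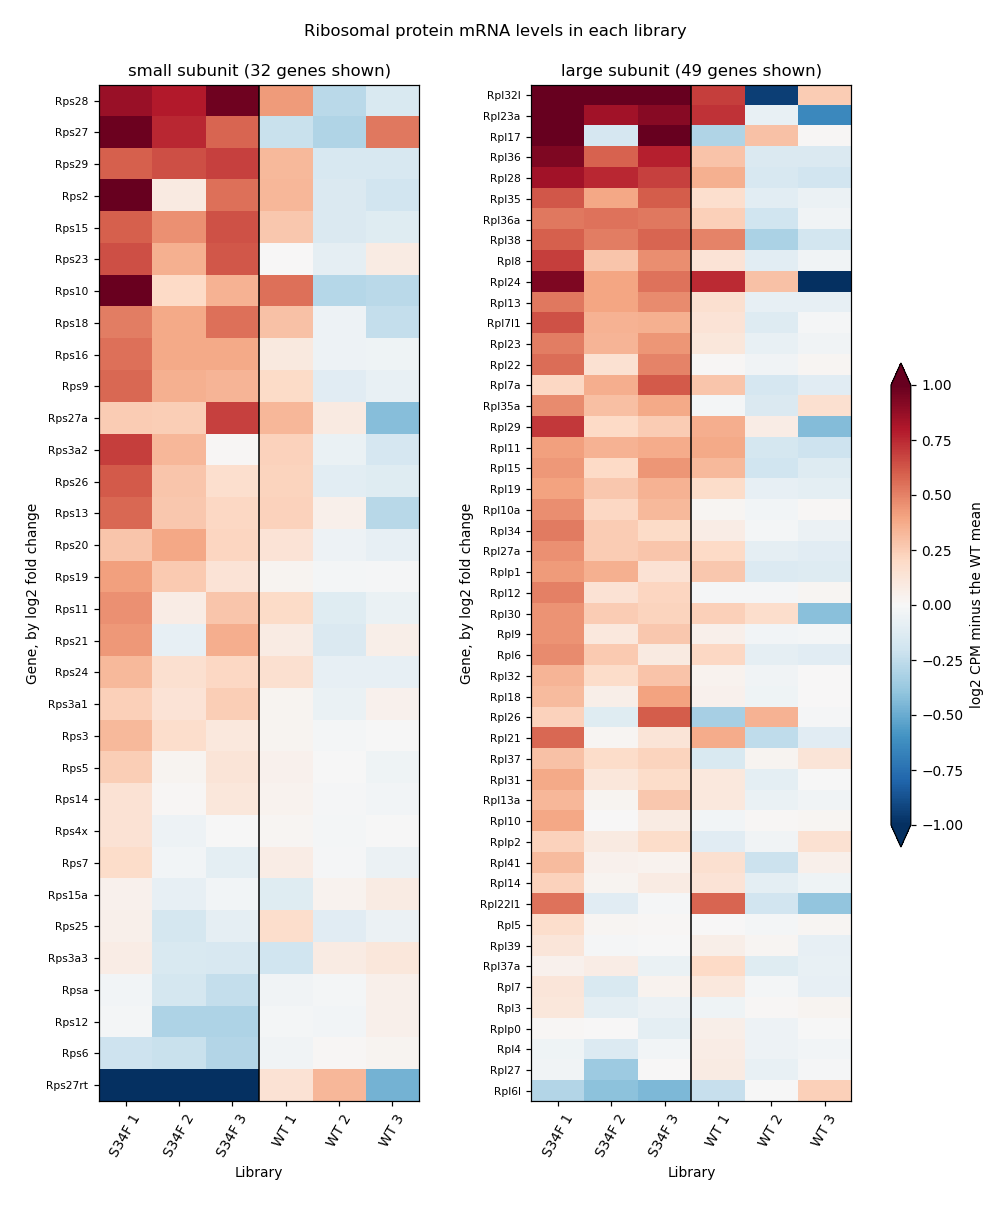
Level of tested ribosomal protein genes (rows, by subunit and fold change) in each library (columns), as log2 CPM minus the mean of the WT libraries. Colours are capped at 1 in either direction. Most rows are red in all 3 S34F libraries, WT replicate 1 is paler red in many rows, and Rps27rt is the only row at the blue cap in all 3 S34F libraries.

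Members took 6.45%, 5.99% and 6.16% of all gene counts in S34F and 5.80%, 5.53% and 5.56% in WT. Every S34F library was above every WT library, with means of 6.20% ± 0.229 and 5.63% ± 0.147 (SD, n = 3 libraries each) and a difference of 0.569 percentage points. Large-subunit genes went from 3.20% ± 0.127 in WT to 3.62% ± 0.145 in S34F, and small-subunit genes from 2.44% ± 0.0199 to 2.58% ± 0.0889. Transcripts of the mitochondrial genome moved the other way, from 2.89% ± 0.137 in WT to 2.10% ± 0.0719 in S34F, and a share of counts depends on every other share. Whether this bears on the ribosomal protein share was not tested.

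Rpl36, a protein of the large subunit (chr17:56613416-56614243), was the 1 member that rose, beside 1.58% of all genes tested. Its levels were 532.1, 418.9 and 476.9 CPM in S34F and 338.9, 252.2 and 252.1 CPM in WT. The groups did not overlap, and WT replicate 1 was the nearest WT library. This was a 1.69-fold rise, or 0.76 ± 0.155 (SE) on the log2 scale (edgeR adjusted p = 0.0492). The call is close to the threshold. It was lost without S34F replicate 1, S34F replicate 3, WT replicate 2 or WT replicate 3, and with WT replicates 2 and 3 summed. A minimum of 1 CPM in 3 libraries, and removal of GC trends, alone or together with length trends, also ended it. Only 44.7% of the 100-base windows of the Rpl36 mRNA are found in no other transcript, so its counts depend on read assignment. The Rpl36 row held 98.7% of the counts summed with its near-identical copies.

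Rps27rt, the intronless copy of Rps27, was the 1 member that fell, beside 0.595% of all genes tested. It had 44.4, 61.2 and 83.2 CPM in S34F and 254.0, 290.2 and 165.8 CPM in WT. The highest S34F library was below the lowest WT library. This was a 3.76-fold drop, a log2 fold change of -1.91 ± 0.263 (SE), at an edgeR adjusted p of 0.0175. Among the fits that left out 1 library, the call was lost without S34F replicate 1 and without WT replicate 2.

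Its parent Rps27, a zinc-finger protein of the small subunit, went the other way, with 374.2, 318.2 and 282.8 CPM in S34F and 161.7, 153.4 and 273.1 CPM in WT. The groups did not overlap, but WT replicate 3 came close to S34F replicate 3. At 0.73 ± 0.223 (SE), the log2 fold change did not pass (edgeR adjusted p = 0.115). Only 1.63% of the 100-base windows of the Rps27 mRNA, and 10.6% of those of Rps27rt, are found in no other transcript, so the counts of either row depend on how reads with several matches were assigned, which is not given in the sources used here.

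Summed with all their near-identical copies, Rps27 and Rps27rt gave 418.8, 379.9 and 366.3 CPM in S34F and 416.1, 443.8 and 439.0 CPM in WT. On the sum S34F replicate 1 lay inside the WT range, and the log2 fold change was -0.15 ± 0.108 (SE; edgeR adjusted p = 0.436). Within WT, replicate 3 had the most Rps27 and the least Rps27rt, while its sum was near that of replicate 2, although these 2 libraries were otherwise nearly the same. The pair thus differed in how its reads were divided between the 2 rows, and a difference in the total did not pass the test.

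**Figure D2:**
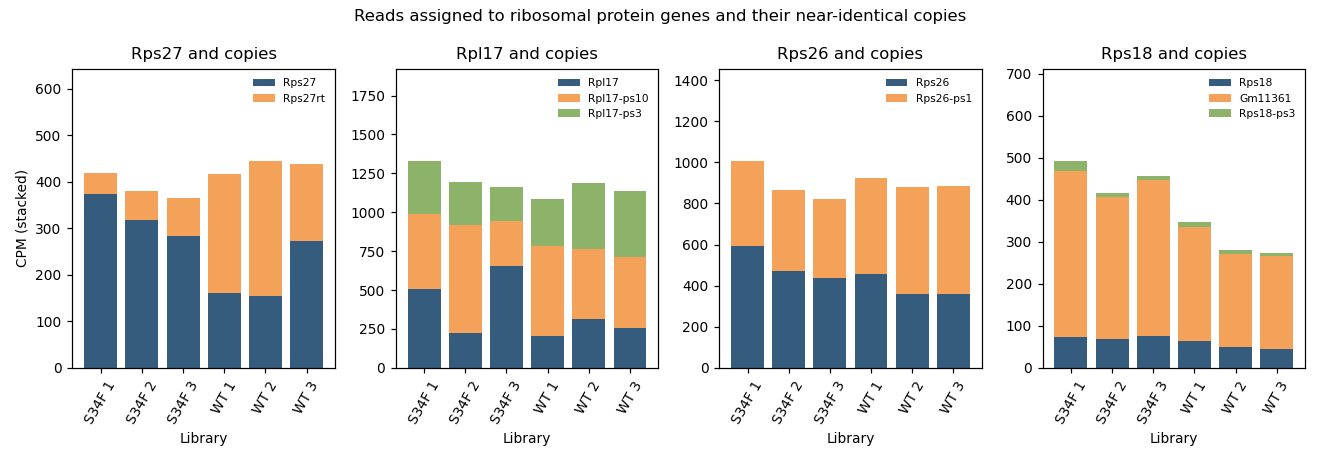
Stacked CPM of 4 ribosomal protein genes (dark blue) and of their most counted copies (other colours) in each library, on linear axes from 0. In the Rps27, Rpl17 and Rps26 panels the blue part varies more between libraries than the height of the stack, while in the Rps18 panel most of the stack belongs to Gm11361 and all 3 S34F stacks exceed all 3 WT stacks.

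Other members divide their reads with copies in a like way; of those described here, Rpl17, Rps18 and Rps2 were chosen after their values were seen. Rpl17, of the large subunit near the exit of the peptide tunnel, had 506, 226 and 654 CPM in S34F and 206, 311 and 256 CPM in WT, so that S34F replicate 2 fell inside the WT range. Its copy Rpl17-ps10 had 481, 694 and 288 CPM in S34F and 576, 455 and 459 CPM in WT: it was highest in the S34F library where Rpl17 was lowest. With all copies summed, the libraries held 1350, 1217 and 1185 CPM in S34F and 1107, 1203 and 1158 CPM in WT. On the log2 scale the fold change went from 0.84 for the Rpl17 row (edgeR adjusted p = 0.188) to 0.12 for the sum (adjusted p = 0.573).

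Rps26, at the mRNA exit channel of the small subunit and mutated in Diamond-Blackfan anemia, had 594, 472 and 437 CPM in S34F and 455, 361 and 358 CPM in WT. Its copy Rps26-ps1 had 411, 396 and 382 CPM in S34F and 470.1, 520.2 and 525 CPM in WT, with no overlap. S34F replicate 3 was below WT replicate 1 in Rps26 itself. Its log2 fold change of 0.36 (edgeR adjusted p = 0.222) became 0.01 for the sum (adjusted p = 0.987).

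For Rps18, a protein of the small-subunit head, the symbol's own row held 16.5% of the summed counts and the predicted gene Gm11361 held 80.4%. The row had 73.8, 67.5 and 76.0 CPM in S34F and 63.4, 50.1 and 43.8 CPM in WT, and the sum 492, 417 and 456 CPM in S34F and 347, 280 and 273 CPM in WT. Groups did not overlap in either. Fold changes on the log2 scale were 0.47 for the row (edgeR adjusted p = 0.120) and 0.61 for the sum (adjusted p = 0.0559).

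Several low rows held a small part of their summed counts. Rps10 held 3.34% of its summed counts, with 91.1% in Rps10-ps2, and Rpl26 held 2.16%, with 97.5% in Gm15772. Rps2 held 3.37%, with 70.3% in Rps2-ps10, and Rpl29 held 3.49%, with 76.2% in Gm13841. For Rpl24 the own row held 39.0% of the sum. The sum itself was low, at 9.01 ± 0.871 CPM in S34F and 6.19 ± 1.68 CPM in WT (SD, n = 3 libraries each). Only 19.9% of the 100-base windows of its mRNA are found in no other transcript, so this sum also does not show little transcription. Where a copy holds most of the sum, a low level on the member's row is a level of assigned reads and does not show that the gene is little transcribed.

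Across the genome the members had 1029 near-identical copies, rows of at least 90% identity over at least 50% of a member's coding part, and 587 of these had counts. With every copy summed into its parent, 79 sums were tested, of which 67 were above 0 with a median log2 fold change of 0.26. Of the sums, 2 rose (beside 1.60% of all genes in that fit) and none fell (beside 0.552%), all by the edgeR test. Rpl36 was one, and Rps28 the other, at 0.87 ± 0.169 (SE; adjusted p = 0.0426). The member's own row held at least 90% of the summed counts in 50 families and under 50% in 10.

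**Figure D3:**
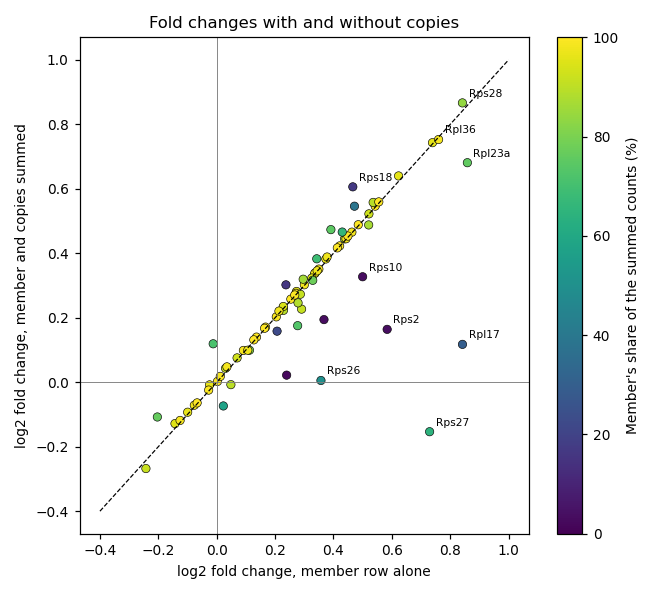
Each point is a ribosomal protein gene, with the log2 fold change of its own row on the x axis and that of the row summed with its near-identical copies on the y axis; colour gives the own row's share of the summed counts. Most points lie on the dashed line of equal values. Rps27, Rpl17, Rps2 and Rps26 lie furthest below it, with Rps27 at 0.73 alone and -0.15 summed.

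Small-subunit genes numbered 34 of 36 tested, 26 of them above 0, with a median log2 fold change of 0.27. Rps28, near the mRNA exit channel, had 299.7, 285.3 and 323.3 CPM in S34F and 221.8, 136.8 and 148.3 CPM in WT. The groups did not overlap, and WT replicate 1 was the highest WT library. The log2 fold change of 0.84 ± 0.181 (SE) just missed the threshold (edgeR adjusted p = 0.0543).

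Rps23, which lies at the decoding centre, had 1272, 1044 and 1251 CPM in S34F and 818, 767 and 863 CPM in WT, and here WT replicate 1 stood between the other WT libraries (log2 fold change 0.54 ± 0.124 SE; edgeR adjusted p = 0.0644). Rps29, a small zinc-binding protein that is mutated in some families with Diamond-Blackfan anemia, had 477, 494 and 507 CPM in S34F and 395, 282 and 282.4 CPM in WT. Its log2 fold change was 0.62 ± 0.150 (SE; edgeR adjusted p = 0.0710). Rps15, of the small-subunit head, had 665, 605 and 685 CPM in S34F and 531, 397 and 404 CPM in WT, with a value of 0.56 on that scale (adjusted p = 0.0805). In all 3 the S34F libraries were above the WT libraries.

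Rps6, the substrate of S6 kinase downstream of mTOR, was the 1 tested member other than the copies that lay lower in S34F without overlap. It had 1524, 1511 and 1438 CPM in S34F and 1721, 1775 and 1795 CPM in WT, a narrow spread within each group. The log2 fold change of -0.24 ± 0.105 (SE) did not pass the test (edgeR adjusted p = 0.222). Rpsa, also a laminin receptor, had the highest CPM of the members, with 3900.2, 3506 and 3369 CPM in S34F and 3872, 3921 and 4104 CPM in WT, and the groups overlapped.

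Rps12 (log2 fold change -0.20, edgeR adjusted p = 0.362) and Rpsa (log2 fold change -0.14, adjusted p = 0.494) were below 0 and did not pass. Rps12 had 770.5, 631 and 629 CPM in S34F and 767, 764 and 807 CPM in WT, so that S34F replicate 1 lay inside the WT range. Rps4x, the X-linked form, was at 0.03 and Rps27a, made as a fusion to ubiquitin, at 0.37 with overlapping groups.

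Of the 53 large-subunit genes, 50 were tested and 45 were above 0, with a median log2 fold change of 0.29. Rpl28 had 844, 796 and 759.6 CPM in S34F and 602, 421 and 414 CPM in WT. The groups were apart, with WT replicate 1 nearest to S34F, and the log2 fold change was 0.74 ± 0.161 (SE; edgeR adjusted p = 0.0563). Rpl35, near the tunnel exit, had 585, 498 and 580.4 CPM in S34F and 427, 354 and 366 CPM in WT (log2 fold change 0.54, edgeR adjusted p = 0.0678).

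Rpl36a, on the X chromosome, had little spread in S34F, with 332, 336 and 333 CPM against 272, 201 and 225 CPM in WT. Its log2 fold change was 0.52 ± 0.130 (SE; edgeR adjusted p = 0.0756). Rpl4, which lines the peptide tunnel, had 2607, 2446 and 2634 CPM in S34F and 2826, 2589.5 and 2637 CPM in WT, overlapping throughout. Rpl27 lay at -0.13 (adjusted p = 0.613) with overlapping groups.

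The P stalk, which recruits the elongation factors, gave no call. Rplp0, its base, had 3604, 3598 and 3344 CPM in S34F and 3729, 3458 and 3564 CPM in WT (log2 fold change -0.03). Its partners Rplp1 and Rplp2 were at 0.30 (edgeR adjusted p = 0.279) and 0.16 (adjusted p = 0.446). Per kilobase of main mRNA, Rplp1 was the highest member, at 3401 CPM per kb, followed by Rplp0 at 2614 and Rpsa at 2363. In all 3 P-stalk genes the groups overlapped.

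Rpl5 and Rpl11 join the 5S RNA in a particle that binds MDM2 when ribosome assembly fails. Rpl5 had 1261, 1132 and 1130.3 CPM in S34F and 1125, 1101 and 1131 CPM in WT, and its log2 fold change was 0.07. Rpl11 had 758, 729 and 739 CPM in S34F and 745, 506 and 495 CPM in WT, where WT replicate 1 stood among the S34F libraries (log2 fold change 0.35, edgeR adjusted p = 0.259). Neither passed the test.

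From the genes mutated or deleted in Diamond-Blackfan anemia or the 5q- syndrome, 7 were picked for that role, without others such as Rps29. All 7 were above 0, beside 71 of the 84 tested members and 50.1% of all genes, and none passed the test. Rps19, the gene most often mutated in that anemia, had 639, 577 and 529.7 CPM in S34F and 491, 476 and 477 CPM in WT, without overlap (log2 fold change 0.27, edgeR adjusted p = 0.203). Rpl35a was at 0.38, Rps26 at 0.36, Rps24 at 0.23 and Rps7 at 0.02. Rps14, the gene of the 5q- syndrome, had 1039, 945 and 1016 CPM in S34F and 961, 933 and 923 CPM in WT, at 0.09 with overlapping groups.

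Several paralogues and copies were at or near 0 counts. Rpl3l, the striated muscle form of Rpl3, had 7, 10 and 9 counts in S34F and 6, 9 and 7 counts in WT. Rpl10l and Rpl39l had 0 counts in every library. Rps12l1 and Rps4l, annotated as processed pseudogenes, had 0 counts in every library and 1 count in WT replicate 2, respectively. None of the 100-base windows of Rps12l1 is unique to it, so its 0 counts do not show that it is silent. With 0 counts the limit per library is 3 counts, or 0.157 to 0.182 CPM by library totals. Their widely used partners were well above this, with log2 fold changes of 0.17 for Rpl10, 0.04 for Rpl39 and -0.01 for Rpl3.

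Rpl22 and its paralogue Rpl22l1 are 64.7% identical in the aligned coding part, so their reads can be told apart from each other. Unique 100-base windows made up 100% of Rpl22 and 59.4% of Rpl22l1, so the level of Rpl22l1 still depends on read assignment. Rpl22 had 343, 258 and 329 CPM in S34F and 235, 228 and 236 CPM in WT, without overlap (log2 fold change 0.41 ± 0.129 SE; edgeR adjusted p = 0.120). Rpl22l1 had 105.7, 66.9 and 71.9 CPM in S34F and 108.4, 63.6 and 55.1 CPM in WT, with the first library of each group the highest (0.11, adjusted p = 0.850).

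Copies named without a pseudogene number were tested as rows of their own. Rpl6l, 96.5% identical to Rpl6, had 88.5, 81.4 and 79.3 CPM in S34F and 92.3, 107.9 and 127.8 CPM in WT, lower in all 3 S34F libraries (log2 fold change -0.40 ± 0.135 SE; edgeR adjusted p = 0.143). Rps3a2 and Rps3a3, 99.1% and 98.9% identical to Rps3a1, were at 0.36 and -0.08, and Rps3a1 at 0.21. Unique 100-base windows made up 38.1% of Rpl6l, 21.4% of Rps3a2 and 68.4% of Rps3a3, so these levels too depend on read assignment. Summed with all copies, Rps3a1 was at 0.16 (edgeR adjusted p = 0.487) and Rpl6 at 0.18 (adjusted p = 0.455). Rpl32l, the lowest tested row, had a mean of 0.461 CPM. It had 13, 12 and 11 counts in S34F and 6, 2 and 5 counts in WT. Its log2 fold change of 1.40 ± 0.490 (SE) was the highest of the members and rests on these few counts (edgeR adjusted p = 0.152).

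**Figure D4:**
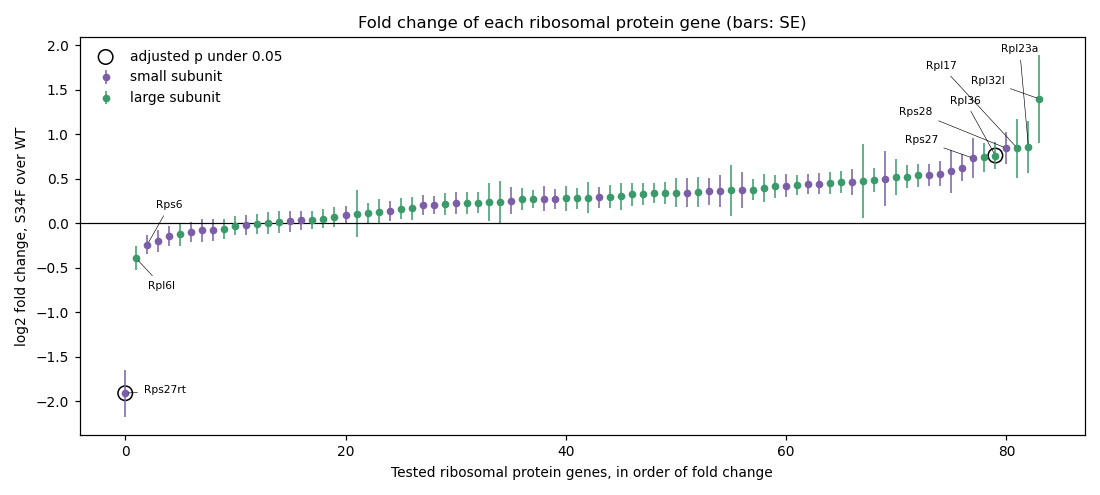
Log2 fold change (S34F over WT) of the 84 tested ribosomal protein genes in increasing order, with SE bars; purple marks the small and green the large subunit, and rings mark an adjusted p under 0.05. Most points form a gentle slope above 0, with Rps27rt alone at -1.91 and Rpl32l, a row of few counts, highest at 1.40. Only Rps27rt and Rpl36 are ringed.

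Features that the symbols did not fix were set beside the fold changes as descriptions across genes, which share libraries. Members with higher levels had smaller log2 fold changes (Spearman's rho -0.43 with mean CPM, 84 genes), and those with longer mRNAs likewise (rho -0.29). With GC content rho was 0.22, and over 13433 genes it was 0.32, with -0.16 for length. Members were short, with a median mRNA of 774.5 bases against 2464, and had a median GC content of 51.7% against 49.8%. With each library's trends with GC content and length removed, the median log2 fold change was 0.19, 62 of 84 were above 0, and Rpl36 was not called.

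The share of unique 100-base windows had rho -0.07 with the fold change, and 34 of the 89 members had under 50% of them. In the 51 tested members with at least 50%, 45 were above 0 with a median of 0.27. Members with a pyrimidine run at the start had a median of 0.33 (33 of 37 above 0), and those without one 0.22 (19 of 24). With CCGGAAG the median was 0.27 (21 of 24 above 0) and without it 0.30 (31 of 37). Introns of 30 members hold small nucleolar RNAs, which guide modification of ribosomal RNA, and these hosts had a median of 0.25 (25 of 30 above 0) against 0.34 in the others (46 of 54). No test was made of these splits.

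The wider translation machinery moved less. Of 35 initiation and elongation factors, 22 were above 0 with a median log2 fold change of 0.05, and none passed the edgeR test, with 3 higher and 2 lower at an unadjusted p under 0.05. Over all genes those shares were 11.9% and 10.1%, which apply to the other lists too. Eif6, which keeps free large subunits from joining, was nearest, with 227, 181 and 175 CPM in S34F and 144, 104 and 103 CPM in WT (0.73, adjusted p = 0.0635). Among 9 ribosome-linked proteins with other names, 7 were above 0 and the median was 0.12. None of these 9 passed, with 1 higher and 0 lower at an unadjusted p under 0.05. Fau, whose product is cleaved to the small-subunit protein eS30, had 792, 823 and 802 CPM in S34F and 657, 609 and 658 CPM in WT (0.33, adjusted p = 0.124), and its groups did not overlap.

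Genes of ribosome biogenesis were above 0 in 39 of 51 cases, with a median of 0.15, and none passed (3 higher and 1 lower at an unadjusted p under 0.05). Their mean log2 level against WT was 0.43, -0.15 and 0.21 in S34F and 0.33, -0.16 and -0.16 in WT. These levels divided the libraries across the groups: S34F replicates 1 and 3 and WT replicate 1 were high, and the other 3 low. Gar1, of the particles that pseudouridylate ribosomal RNA, was at 0.57 (edgeR adjusted p = 0.135) with overlapping groups.

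Regulators of these mRNAs gave 1 rise in 18 tested of 19, beside 1.58% of all genes, with a median of -0.04. Eif4ebp1, which encodes a target of mTOR, had 189.9, 168.2 and 159.9 CPM in S34F and 121.6, 103.5 and 116.8 CPM in WT, without overlap. It rose 1.51-fold, a log2 fold change of 0.60 ± 0.116 (SE, edgeR adjusted p = 0.0422). The non-coding hosts of small nucleolar RNAs, listed as genes with TOP tracts, had a median of 0.26. Of 7 hosts, 6 were above 0 and 2 rose, beside 50.1% and 1.58% of all genes. A link of their levels to TOP tracts was not tested. Zfas1 rose 2.04-fold, with 164.9, 187.0 and 194.9 CPM in S34F and 85.6, 92.3 and 89.7 CPM in WT (edgeR adjusted p = 0.00689). Snhg8 rose 1.78-fold (adjusted p = 0.0276).

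Genes of the p53 response to free ribosomal proteins were above 0 in 6 of 6 tested of 7, with a median of 0.20, and none passed (1 higher and 0 lower at an unadjusted p under 0.05). Cdkn1a, which stops the cell cycle, had 299.4, 302.3 and 281.6 CPM in S34F and 225.4, 165.1 and 164.4 CPM in WT, at 0.67 ± 0.143 (SE; edgeR adjusted p = 0.0532). Its groups did not overlap, and WT replicate 1 was again the nearest WT library.

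**Figure D5:**
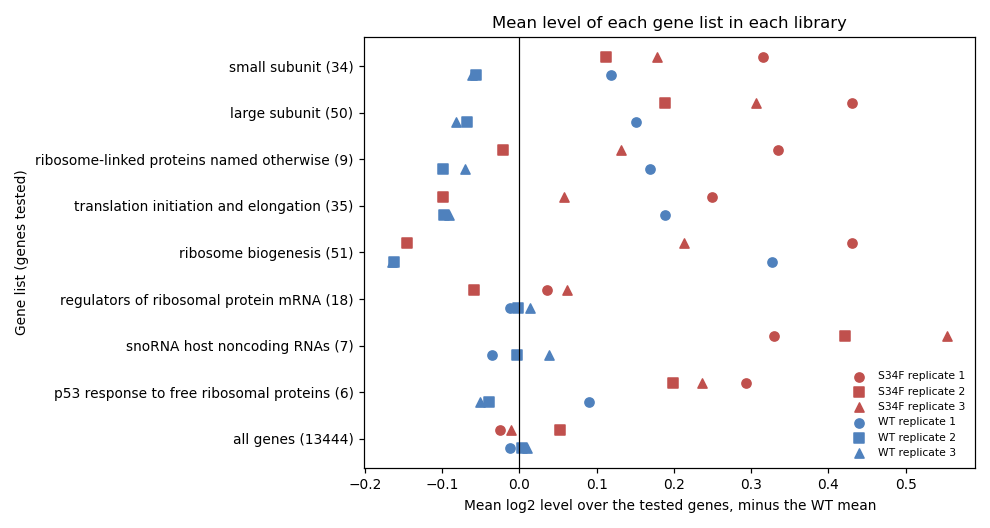
Mean log2 level of the tested genes of each list in each library, set against the mean of the WT libraries (x axis); red marks S34F and blue WT, and shapes mark replicates 1 (circle), 2 (square) and 3 (triangle). For both subunits WT replicate 1 falls near S34F replicate 2, and for ribosome biogenesis S34F replicate 2 falls beside WT replicates 2 and 3.

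Markers of other cell types were set beside these levels. The erythroid and megakaryocyte list summed to 748 to 874 CPM in S34F and 585 to 616 CPM in WT, with Hbb-bt at 0 in all libraries, and the mast and basophil list to 428 to 529.6 and 394 to 469 CPM, with Fcer1a and Tpsb2 at 0. The myeloblast list summed to 2382 to 2954 CPM in S34F and 2110 to 2433 CPM in WT, and 1 of its 9 tested genes, Spi1, rose 1.51-fold (edgeR adjusted p = 0.0491). Lymphoid markers summed to at most 0.365 CPM and fibroblast markers to at most 4.68 CPM. The part of these differences in the ribosomal protein levels was not tested.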

How the data were processed

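The authors deposited whole-number counts of reads per gene, 1 column per library; HISAT2, featureCounts and the build mm10 are named per the submitters' processing notes, and per the labels' protocols the libraries were directional. How featureCounts treated strand and multiply matching reads was not stated in any source used here. Counts were tested in edgeR 4.0.16 (R 4.3.3): TMM, filterByExpr, robust quasi-likelihood F test, two-sided, genotype only, 4 residual degrees of freedom, Benjamini-Hochberg adjustment at 0.05 over 13444 genes. CPM values are TMM-normalised, and the SE is the log2 fold change over the root of F. The procedure was tested on simulated data. Positions and lengths came from GENCODE M21 (GRCm38, the same build), copies from BLAST 2.17.0, and starts from RefSeq.

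The members and lists were chosen with earlier results of these data known. Named members were those called, the 8 with the smallest p on each side of 0, the 5 highest and 5 lowest by mean CPM, and members with set roles, 46 in all. From each list came up to 4 called genes or else the gene with the smallest p. As alternatives, size factors were taken by RLE, by the upper quartile or from totals alone, with 2 other count filters, DESeq2 1.42.0, limma-voom 3.58.1, a replicate block, each library left out, WT replicates 2 and 3 summed, Rps27 and Rps27rt summed, and numbered pseudogenes added. Chosen after seeing the data were lowess (span 0.5) offsets for GC content, or GC content and length, and all copies summed. Figures used matplotlib 3.10.9. Some named genes are not reported here.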

Additional observations from a re-analysis of the deposited data

How the results depend on the processing

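The members called were Rpl36 (higher) and Rps27rt (lower), and both were called with RLE or upper-quartile factors, library totals or numbered pseudogenes added. With all copies summed there were also 2 calls, but of Rpl36 and Rps28, both higher. The count was 1 with Rps27 and Rps27rt summed (Rpl36, higher, beside 213 of 13443 genes). It was 1, Rps27rt (lower), with a minimum of 1 CPM in 3 libraries, beside 85 of 12309 genes that fell. With WT replicates 2 and 3 summed it was again Rps27rt alone, beside 4 of 13815 genes that fell. The count was also 1, of Rps27rt, with GC trends removed (beside 46 of 13444 genes) or GC and length trends removed (beside 45). It was 4 with limma-voom (3 higher, beside 201 of 13444 genes; 1 lower, beside 70, or 0.521%), 9 without a count filter (8 higher, beside 2.04%; 1 lower, beside 1.07%) and 19 with DESeq2 (18 higher, beside 5.55% of all genes; 1 lower, beside 3.50%). Leaving out each library gave 0 to 20. It was 20 (18 higher, 2 lower) without WT replicate 1, where only the near-duplicate WT replicates 2 and 3 remain. Over all genes, 722 of 13837 then rose and 455 fell. It was 0 without S34F replicate 1, where 18 of 13811 genes rose and 2 fell. Without WT replicate 2 it was also 0, where 16 of 13775 genes rose and 3 fell. The causes were not tested. With the replicate number as a block the count of members was 22, all higher, and Rps27rt was lost, beside 6.53% of all genes higher. Correlations of same-numbered libraries' deviations were 0.33, 0.16 and 0.07, and 4 of 6 libraries correlated best with their own number, which does not establish a pairing. The median log2 fold change stayed above 0 under every alternative run (0.19 to 0.37), and the difference in share of counts was 0.447 to 0.673 percentage points. Rps27rt was called in 16 of 19 fits that held it and Rpl36 in 13 of 21. Members under 1 CPM rest on few counts, and levels of members with near-identical copies rest on an assignment of reads that could not be checked.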

Other observations

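Rows of numbered pseudogenes and predicted genes that match members, outside the comparisons described, varied between libraries in ways of their own; these rows were chosen after their values were seen. Rpl3-ps1 had 635.9, 548.9 and 514.8 CPM in S34F and 454.2, 379.3 and 401.4 CPM in WT, with no overlap, while Rpl3 itself had 1360, 1174 and 1206 CPM in S34F and 1220.4, 1270 and 1281 CPM in WT. Gm6472, a copy of Rps7, had 506.8, 490.3 and 472.1 CPM in S34F and 491.1, 588.5 and 627.8 CPM in WT, and Gm4332, a copy of Rps20, had 85.7, 94.2 and 93.5 CPM in S34F and 89.95, 137.7 and 153.5 CPM in WT.

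Rpl30-ps10 and Gm12191, both copies of Rpl30, set WT replicate 3 apart from WT replicate 2, which it otherwise resembles. Rpl30-ps10 had 34.1, 21.6 and 24.1 CPM in S34F and 9.67, 6.30 and 57.3 CPM in WT. Gm12191 had 30.1, 18.7 and 20.4 CPM in S34F and 9.97, 10.8 and 47.2 CPM in WT. In the same libraries Rpl30 had 659, 574 and 563 CPM in S34F and 568, 544 and 361 CPM in WT, so that its lowest library is the one where these copies are highest. Summed with all copies, Rpl30 had 726, 617 and 612 CPM in S34F and 591, 563 and 469 CPM in WT. WT replicate 3 thus remained the lowest library on the sum.

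All numbered pseudogenes together took 0.447% ± 0.0441 of counts in S34F and 0.437% ± 0.0134 in WT (SD, n = 3 libraries each), a difference within the spread.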
